A study of Mus musculus with 3 samples.

Results

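The genes described here are 9 that act in cell growth: Myc, Mycn and Max of the Myc family, and Ncl, Npm1, Fbl, Nop56, Nop58 and Nolc1 of the nucleolus. They were chosen by name, with earlier results of these data known. Matched by symbol to the mouse gene identifiers of the count tables, all 9 were found among 29267 identifiers. All 9 also passed the filter on low counts, which left 17119 genes to be tested between cell types.

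Myc and Mycn encode basic helix-loop-helix leucine zipper transcription factors that bind DNA as a dimer with the product of Max, preferentially at the E-box CACGTG. Among the genes they are known to drive are those for building ribosomes, a process that starts in the nucleolus, where ribosomal RNA is made, cut and chemically modified. Nucleolin (Ncl) and nucleophosmin (Npm1) are abundant nucleolar proteins of ribosome assembly. Fibrillarin (Fbl) is the methyltransferase of the box C/D small nucleolar ribonucleoproteins (snoRNPs), Nop56 and Nop58 are their core scaffold, and Nolc1 (Nopp140) is a chaperone of snoRNPs. Mouse embryonic stem cells divide fast and are known for Mycn expression.

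The cells were mouse embryonic stem cells derived from the blastocyst, all of them labelled Mll1fl/fl with the inducible Cre-ER TM on the C57BL/6J background. The 3 cell types were cells without Mll1 (Mll1-/-, called deleted), Mll1fl/fl cells under Mll1 inhibition (inhibited) and Mll1fl/fl control cells (control). Mll1, now named Kmt2a, encodes a histone H3 lysine 4 methyltransferase. The inhibitor, its dose, the time of treatment and the number of independent lines are not given in the sources used here. Each of 3 chips (plates 1, 2 and 3) held all 3 cell types, so every comparison was made within plates. The labels do not say whether the plates were separate cultures. The p-values between cell types therefore measure only how the differences between cell types vary from plate to plate, and that variation may be technical.

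Single wells were sequenced with unique molecular identifiers (UMIs), which count molecules, and 1310 deleted, 1590 inhibited and 1513 control wells were kept. Summed per plate and cell type they made 9 libraries of 25914860 to 43773924 UMIs, and levels are given as CPM, counts scaled to library size, after edgeR's TMM normalisation. Sums and levels of cell type markers are instead scaled to total counts alone, as are levels of pseudogenes given over all libraries. The single values of Dppa5a, Pou5f1 and Nanog below are also pooled over plates. Summed markers of embryonic stem cells reached 5345 to 6858 CPM in deleted, 4732 to 5427 CPM in inhibited cells, against 6314 to 6744 CPM in control cells, and all 12 were detected in each cell type. Dppa5a alone gave 5159, 4152 and 5556 CPM of these in deleted, inhibited and control cells, while Pou5f1 gave 53.5, 56.2 and 52.9 CPM and Nanog 20.2, 12.2 and 22.8 CPM. Without Dppa5a the sums overlapped, at 810 to 928 CPM in deleted, 791.5 to 910 CPM in inhibited and 898 to 1015 CPM in control cells. Kmt2a stood at 39.2 to 62.1 CPM in deleted, 40.6 to 46.7 CPM in inhibited cells, against 50.2 to 54.7 CPM in control cells. Deleted and control cells did not differ in it past the threshold (edgeR's quasi-likelihood test, Benjamini-Hochberg adjusted p = 0.959), and the deleted exons are not named, so this gene does not check the genotype. A barcode is an address on the chip, and 927 were used on 2 plates and 113 on all 3, so shared barcodes do not mark shared cells.

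Promoter sequences were taken from RefSeq (GRCm38.p6) as 300 bases, 250 before the annotated start and 50 after it, which was possible for Mycn, Max, Ncl, Nop56, Nop58 and Nolc1. The sequences of Max, Nop58, Nop56 and Nolc1 are shown: Max because it alone of the 6 held a perfect E-box, Nop58 because it passed a test below, and Nop56 and Nolc1 as nucleolar genes lower in deleted than in control cells on every plate. Capitals mark the E-box CACGTG, which reads the same on both strands, and the GC box GGGCGG or its reverse complement.
Max: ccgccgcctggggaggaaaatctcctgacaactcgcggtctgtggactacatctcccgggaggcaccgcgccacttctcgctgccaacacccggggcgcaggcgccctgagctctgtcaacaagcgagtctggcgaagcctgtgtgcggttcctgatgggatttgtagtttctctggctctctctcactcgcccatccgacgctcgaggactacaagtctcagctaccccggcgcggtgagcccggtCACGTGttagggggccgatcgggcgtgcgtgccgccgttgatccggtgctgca
Nop58: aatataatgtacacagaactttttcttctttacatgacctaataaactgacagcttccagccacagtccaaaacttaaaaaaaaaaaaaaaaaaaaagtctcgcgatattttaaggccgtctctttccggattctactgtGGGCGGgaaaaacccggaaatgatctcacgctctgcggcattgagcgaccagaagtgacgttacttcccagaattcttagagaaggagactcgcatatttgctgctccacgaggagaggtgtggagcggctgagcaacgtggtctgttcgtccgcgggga
Nop56: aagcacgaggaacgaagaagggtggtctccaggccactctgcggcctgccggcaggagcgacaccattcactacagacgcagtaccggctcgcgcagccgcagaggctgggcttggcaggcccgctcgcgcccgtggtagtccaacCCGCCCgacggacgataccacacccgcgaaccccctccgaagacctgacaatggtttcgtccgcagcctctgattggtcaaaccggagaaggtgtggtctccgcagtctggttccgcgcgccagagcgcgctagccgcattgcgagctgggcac
Nolc1: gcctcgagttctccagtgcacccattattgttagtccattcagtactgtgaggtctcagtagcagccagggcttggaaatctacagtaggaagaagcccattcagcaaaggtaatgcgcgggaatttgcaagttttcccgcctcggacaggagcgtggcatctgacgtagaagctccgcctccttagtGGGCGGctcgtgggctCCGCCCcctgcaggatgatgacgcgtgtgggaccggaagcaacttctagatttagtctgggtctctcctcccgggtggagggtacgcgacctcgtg
The Max sequence lies on chr12:76962199-76962498 (minus strand), Nop58 on chr1:59684756-59685055 (plus strand), Nop56 on chr2:130274162-130274461 (plus strand) and Nolc1 on chr19:46075597-46075896 (plus strand). The E-box of Max starts 3 bases before the annotated start. Of all 27025 mouse promoters in the same table, 7.24% held CACGTG on either strand, against 1 of the 6 examined here. GGGCGG on either strand was in 5 of the 6 and in 35.9% of all promoters, and Max was the 1 without it. These are matches of letters in a window and not measured binding.

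In the Myc family the 3 cell types overlapped for every gene. Myc (ENSMUSG00000022346, GRCm38 chromosome 15, 61985391 to 61990374) had 7.27, 9.06 and 18.4 CPM in deleted cells on plates 1, 2 and 3, 12.4, 12.05 and 21.8 CPM in inhibited cells, and 12.3, 10.2 and 21.8 CPM in control cells. Plate 3 was highest in each cell type, and the ranges of the 3 cell types overlapped. Mycn (ENSMUSG00000037169, chromosome 12, 12936093 to 12941914) had 42.9, 26.9 and 46.0 CPM in deleted cells, 38.5, 37.8 and 42.7 CPM in inhibited cells, and 48.1, 34.8 and 56.6 CPM in control cells. Here plate 2 was lowest in each cell type, and again the ranges overlapped. Max (ENSMUSG00000059436, chromosome 12, 76937269 to 76962201) had 27.1, 39.1 and 27.6 CPM in deleted cells, 35.9, 36.3 and 28.7 CPM in inhibited cells, and 27.9, 39.2 and 33.6 CPM in control cells, also with overlapping ranges.

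Ncl and Npm1 encode abundant nucleolar proteins. Ncl (ENSMUSG00000026234, chromosome 1, 86344719 to 86359400) had 2429, 2258 and 2130 CPM in deleted cells, 2436, 2372 and 2346 CPM in inhibited cells, and 2474, 2345 and 2234 CPM in control cells. Npm1 (ENSMUSG00000057113, chromosome 11, 33152287 to 33163206) had 2722, 3153 and 2761 CPM in deleted cells, 3105, 3565 and 3215 CPM in inhibited cells, and 3092, 3555 and 3656 CPM in control cells. For Npm1 the deleted library was the lowest of the 3 on each plate, and the ranges still overlapped, since deleted cells on plate 2 were above control cells on plate 1.

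Of the snoRNP genes, the pair of the core scaffold had their lowest level on each plate in deleted cells. Nop56 (ENSMUSG00000027405, chromosome 2, 130274430 to 130279313) had 285, 363 and 293 CPM in deleted cells, 342, 397 and 339 CPM in inhibited cells, and 310, 385 and 360 CPM in control cells. Nop58 (ENSMUSG00000026020, chromosome 1, 59684971 to 59719044) had 961, 918 and 884 CPM in deleted cells, 1032, 1047 and 960 CPM in inhibited cells, and 1000, 1004 and 964 CPM in control cells. The highest deleted library of Nop58 was just below the lowest control library, so these ranges did not overlap. Nolc1 (ENSMUSG00000015176, chromosome 19, 46075863 to 46085530) had 398, 416 and 374 CPM in deleted cells, 460, 434 and 444 CPM in inhibited cells, and 444, 432 and 430 CPM in control cells. All 3 deleted libraries of Nolc1 were below all 6 others. Fbl (ENSMUSG00000046865, chromosome 7, 28169710 to 28179269) had 10.9, 8.49 and 8.99 CPM in deleted cells, 10.4, 8.18 and 13.1 CPM in inhibited cells, and 11.9, 9.36 and 10.4 CPM in control cells, with overlapping ranges.

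**Figure D1:**
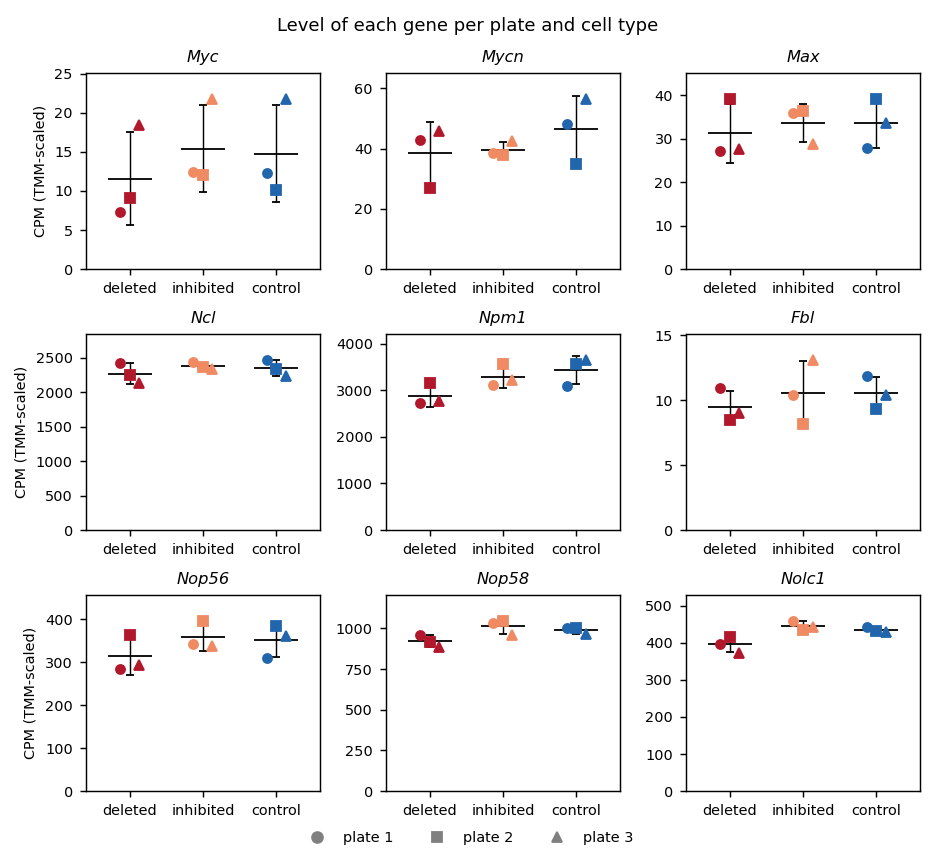
Level of each of the 9 genes (vertical axis, TMM-scaled CPM, starting at 0) in deleted, inhibited and control cells. Points are the 3 plates (symbol gives the plate), lines and bars are the mean ± SD (n = 3); Nolc1 is the clearest case of deleted libraries (374 to 416 CPM) below control libraries (430 to 444 CPM).

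Between genes, levels were compared per kilobase of annotated exon, as means over the 9 libraries. The length used pools every annotated exon of a gene and can exceed that of the transcript in the cell. It was 10188 bases for Ncl and 10758 for Nop58, against 2665 for Npm1 and 3971 for Nolc1. Before division Nop58 stood at 974 CPM and Nolc1 at 426 CPM, so the order of these genes depends on that length. Npm1 stood at 1202 CPM per kilobase, Ncl at 229, Nolc1 at 107, Nop58 at 90.6 and Nop56 at 83.3 CPM per kilobase. Mycn followed at 12.6, Max at 9.12, Myc at 5.13 and Fbl at 2.42 CPM per kilobase. Over the libraries the neighbours Nolc1 and Nop58, Nop58 and Nop56, Mycn and Max, Max and Myc, and Myc and Fbl overlapped in range, while Npm1, Ncl and the group from Nolc1 to Nop56 did not overlap with the next below. Mycn was above Myc in range, with 8.16 to 17.2 CPM per kilobase against 2.68 to 8.02 CPM per kilobase. The sources used here do not say which transcript end was counted, and if reads came from 1 end only, a value per length understates long transcripts.

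Near-identical sequence elsewhere in the genome makes the counts of 3 members uncertain, since how reads that fit several places were handled is unknown from the labels. For Npm1, 6 processed pseudogenes with counts matched its principal transcript at 90% identity or more over at least 200 bases, and their UMIs came to 0.275 times those of Npm1 itself. The most abundant of them was Gm14681 (97.4% identity over 420 bases) at 636 CPM over all libraries, ahead of Gm5611 at 164 CPM and Gm12583 at 65.3 CPM. Gm14681 had 549, 617 and 574 CPM in deleted cells, against 585, 675 and 788 CPM in control cells, lower in deleted cells on each plate as Npm1 was. Nop56 had a pseudogene copy, Gm27219 (96.9% identity over 738 bases), at 33.2 CPM. Fbl matched the gene Tulp4 on the opposite strand at 99.6% identity over 690 of its 1197 bases, and Tulp4 had 8005 UMIs in all, against 3286 of Fbl. How many reads of Fbl were assigned elsewhere or dropped was not tested. Nop56 and Nop58, like Ncl, hold small nucleolar RNA genes in their introns. The counted ones within Ncl and Nop58 were led by Snora75 with 1293 UMIs and Gm26293 with 379 UMIs, against 749348 UMIs of Ncl and 311905 UMIs of Nop58.

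Deletion was compared with control first, to ask whether loss of Mll1 went with a change in these growth genes. No member passed the threshold of 0.05 over all genes in edgeR's quasi-likelihood test, where 3 had an unadjusted p under 0.05 (Npm1, Nop56 and Nolc1), as did 10.3% of all genes. DESeq2 called 1 member (Npm1) and 325 of all 17119 genes. In direction, however, all 9 were lower in deleted than in control cells on each of the 3 plates. Of all 17119 genes tested, 16.3% were lower on every plate, and of the 1832 that averaged 100 CPM or more 32.2% were, a larger share than over all genes. The members, like the lists below, were chosen with earlier results of these data known. Their counts beside such shares are therefore no independent test. In Nop58 and Nolc1, 2 members, the ranges also did not overlap, as in 5.52% of all genes in that direction. For Max on plate 2 the 2 levels were almost equal (a log2 difference of -0.002), and with libraries scaled by total counts alone 8 of the 9 were lower on every plate, without Max.

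Npm1 had the largest difference for its error. Its level averaged 2879 ± 239 CPM in deleted cells, against 3434 ± 301 CPM in control cells (SD over 3 plates). The fitted log2 difference was -0.25 ± 0.05 (SE; edgeR adjusted p = 0.170). The per-plate log2 differences were -0.18, -0.17 and -0.41. The call depended on the tool and the filter: DESeq2 gave an adjusted p of 0.0104 and edgeR with no filter on low counts 0.00829, and over all 12 alternatives it lay between 0.00829 and 0.796. The copy Gm14681 differed by -0.23 ± 0.07 (SE, adjusted p = 0.332). Among the other nucleolar genes, the log2 difference was -0.17 ± 0.07 for Nop56 (adjusted p = 0.430), -0.14 ± 0.06 for Nolc1 (0.474), -0.10 ± 0.05 for Nop58 (0.512) and -0.05 ± 0.04 for Ncl (0.772). Fbl differed by -0.16 ± 0.22 (adjusted p = 0.876).

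In the Myc family the log2 difference of deleted against control cells was -0.38 ± 0.19 for Myc (SE; edgeR adjusted p = 0.547), -0.28 ± 0.15 for Mycn (0.572) and -0.11 ± 0.15 for Max (0.871). For Myc the value was -0.18 without the deepest 5% of wells of each library and -0.20 without plate 1. When every well was thinned to the same 5869 UMIs before summing, Mycn (0.02), Ncl (0.01) and Fbl (0.37) turned to positive log2 differences, none of them past the threshold, while the other 6 members stayed negative.

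Several other measures differed between deleted and control cells. The median mitochondrial share of UMIs per well was 3.81 to 4.16% in deleted cells, against 3.06 to 3.18% in control cells; leaving mitochondrial transcripts out of the counts, a fit added after the data had been seen, left Npm1 at -0.25. Markers of trophectoderm (10 genes, none at 0) summed to 1020 to 1691 CPM in deleted cells, against 781 to 937 CPM in control cells, led by the keratin Krt18 (log2 difference 0.75 ± 0.11, edgeR adjusted p = 0.0563). Without Krt18 they summed to 315 to 457 CPM in deleted cells, against 206 to 272 CPM in control cells. Fibroblast markers (10 genes) summed to 16.7 to 25.5 CPM in deleted cells, against 7.25 to 12.3 CPM in control cells, with Lum at 0 in control cells. Acta2 alone, a smooth muscle actin, gave 9.31 to 15.8 CPM of these in deleted cells, against 2.32 to 5.12 CPM in control cells, and the other 9 overlapped (7.40 to 9.94 CPM in deleted cells, against 4.94 to 8.27 CPM in control cells). Blood and endothelial markers (8 genes) summed to 10.0 to 14.0 CPM in deleted cells, against 7.08 to 8.95 CPM in control cells, with the haemoglobin gene Hbb-bs at 0 in control cells. Here the endothelial gene Pecam1 gave 7.47 to 8.06 CPM in deleted cells, against 4.24 to 4.87 CPM in control cells, and the other 7 overlapped (2.31 to 6.58 CPM in deleted cells, against 2.22 to 4.40 CPM in control cells). Primitive endoderm markers (9 genes) overlapped, at 14.6 to 20.8 CPM in deleted cells, against 12.3 to 19.0 CPM in control cells, as did the 8 markers of cells like the early embryo, at 3.80 to 56.3 CPM in deleted cells, against 1.05 to 40.2 CPM in control cells, with Tcstv3 at 0 in both. The part of these in the members' differences was not tested.

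The wider lists of the pathway held no call in edgeR in deleted against control cells, where 6 genes in all were called (0.035% of those tested), all higher. DESeq2 called 1 gene of ribosomal RNA processing, 1 of the snoRNP list and 2 growth genes, against 325 of all 17119 genes tested. At an unadjusted p under 0.05 edgeR had 5 of 95, 2 of 18 and 9 of 40, against the 10.3% of all genes. Of 95 tested genes of ribosomal RNA processing, 36 were above 0, with a median log2 difference of -0.04 against 0.00 over all genes tested. The smallest p there were those of Rrp15, a large-subunit assembly factor (-0.32 ± 0.08, adjusted p = 0.222), and of Emg1, a methyltransferase of ribosomal RNA (-0.19 ± 0.07, adjusted p = 0.406). Of 18 genes of snoRNP cores and their assembly, 5 were above 0 (median -0.02), led by Nop10 of the H/ACA class (-0.32 ± 0.07, adjusted p = 0.193) and Snu13 of the box C/D class (-0.15 ± 0.06, adjusted p = 0.442). Of 40 other known Myc-driven growth genes, 14 were above 0 (median -0.07), led by the mitochondrial import factor Timm9 (-0.60 ± 0.13, adjusted p = 0.194) and the lactate dehydrogenase Ldha (-0.23 ± 0.05, adjusted p = 0.203). The RNA polymerase I list (9 of 17 above 0, median 0.03) and the Myc network list (14 of 27 above 0, median 0.01) lay on both sides. In the first, Baz2a of the complex that silences ribosomal DNA had 0.37 ± 0.11 (adjusted p = 0.291) and the topoisomerase Top1 -0.14 ± 0.06 (adjusted p = 0.467). In the second, Mycbp2 had 0.27 ± 0.13 (adjusted p = 0.518) and Mycbp -0.21 ± 0.11 (adjusted p = 0.578). Genes of S phase (14 of 22 above 0, median 0.04) and of G2 and mitosis (6 of 23 above 0, median -0.05) had no call either. The smallest p were those of Slbp (-0.33 ± 0.10, adjusted p = 0.298) and Gins2 (-0.28 ± 0.10, 0.394) in the first of these, and of Birc5 (-0.17 ± 0.06, 0.331) and Top2a (-0.17 ± 0.07, 0.466) in the second.

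**Figure D2:**
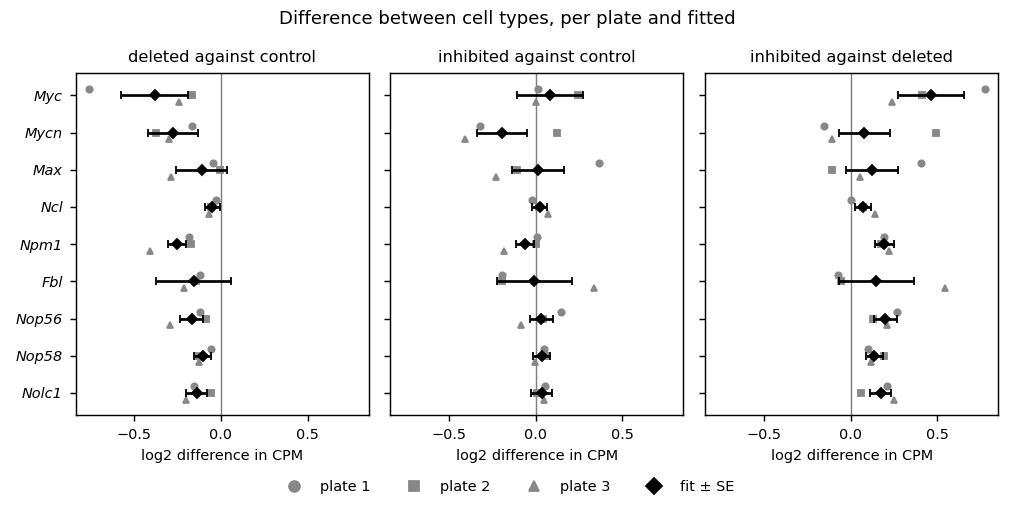
Log2 difference in CPM (horizontal axis) of each gene for deleted against control, inhibited against control and inhibited against deleted cells. Grey symbols are the 3 plates and black diamonds the edgeR fit ± SE; in the left panel all symbols lie below 0 for all 9 genes, Max on plate 2 by 0.002.

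Inhibition against control showed no such common direction. None of the 9 members was called by edgeR or DESeq2 and none had an unadjusted p under 0.05 in edgeR, against 9% of all genes (1540), while 1 gene in all was called by edgeR (0.00584% of those tested). Myc and Nolc1 were higher on every plate, with smallest differences of 0.0004 and 0.007 on the log2 scale, and none was lower on every plate, against 16.6% of all genes higher (40.1% of those with at least 100 CPM) and 16.3% lower. In none did the ranges separate, as they did downwards in 6.23% and upwards in 5.02% of all genes. With total-count scaling none was higher on every plate and 1 was lower (Npm1), against 12.6% of all genes higher and 20.4% lower. Fitted log2 differences in edgeR were 0.08 ± 0.19 for Myc (adjusted p = 0.945), -0.20 ± 0.15 for Mycn (0.760) and 0.01 ± 0.15 for Max (0.991). They were 0.02 ± 0.04 for Ncl (0.937), -0.06 ± 0.05 for Npm1 (0.808), 0.03 ± 0.07 for Nop56 (0.939), 0.03 ± 0.05 for Nop58 (0.911), 0.04 ± 0.06 for Nolc1 (0.925) and -0.01 ± 0.22 for Fbl (0.997). With total-count scaling Max, Ncl, Nop56, Nop58 and Nolc1 turned to the other side of 0, so no direction is read from them. Stem cell markers summed to 4732 to 5427 CPM in inhibited cells, against 6314 to 6744 CPM in control cells. Dppa5a alone gave 3822 to 4561 CPM of these, against 5416 to 5728 CPM. The other stem cell markers overlapped (791.5 to 910 CPM in inhibited cells, against 898 to 1015 CPM in control cells). Blood and endothelial markers summed to 4.29 to 5.00 CPM in inhibited cells, against 7.08 to 8.95 CPM in control cells, with Hbb-bs at 0 in both. Pecam1 gave 2.02 to 2.85 CPM of that sum in inhibited cells, against 4.24 to 4.87 CPM in control cells, and the other 7 overlapped (2.15 to 2.51 CPM in inhibited cells, against 2.22 to 4.40 CPM in control cells). The median mitochondrial share was 3.24 to 3.48% in inhibited cells, against 3.06 to 3.18% in control cells. The part of these was not tested. Of the lists, 54 of 95 ribosomal RNA processing genes were above 0 (median 0.03), as were 13 of 18 snoRNP genes (0.06), 28 of 40 growth genes (0.07), 17 of 22 S phase genes (0.16) and 16 of 23 genes of G2 and mitosis (0.07), against a median of 0.00 over all genes and with no call in any of them by edgeR, where 12, 2, 6, 8 and 1 of them had an unadjusted p under 0.05, against the 9% of all genes. In these lists DESeq2 called 5, 0, 2, 1 and 0, against 277 of all 17119 genes tested. The pair with the smallest p in each were Ngdn (0.30 ± 0.08) and Wdr46 (0.39 ± 0.11), Nhp2 (0.24 ± 0.08) and Znhit6 (0.21 ± 0.09), Eif5a (0.30 ± 0.08) and Phb (0.24 ± 0.07), Gins2 (0.41 ± 0.10) and Rrm2 (0.23 ± 0.07), and Kif23 (-0.27 ± 0.10) and Kif11 (0.21 ± 0.10), with adjusted p of 0.355 to 0.590 in edgeR. Of the 17 RNA polymerase I genes 8 were above 0 (median 0.00), with the smallest p for Polr1c (0.16 ± 0.07, adjusted p = 0.524) and Taf1a (0.49 ± 0.26, 0.618). Of the 27 genes of the Myc network 11 were above 0 (median -0.05), with the smallest p for the Max partner Mxd4 (-1.06 ± 0.25, adjusted p = 0.355) and Wdr5 (0.21 ± 0.11, 0.604).

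Inhibition set against deletion used the same deleted libraries as the first comparison, so the values of both are not independent. No member was called by edgeR or DESeq2, and 5 had an unadjusted p under 0.05 in edgeR (Myc, Npm1, Nop56, Nop58 and Nolc1), as did 13.7% of all genes. Of all genes, edgeR called 53 (0.31%), 16 higher and 37 lower, and with total-count scaling 8 higher and 43 lower. Myc, Ncl, Npm1, Nop56, Nop58 and Nolc1, 6 members, were higher in inhibited than in deleted cells on every plate, against 17.5% of all genes and 41.8% of those with at least 100 CPM; with total-count scaling Myc, Npm1, Nop56 and Nop58 were. Nolc1 was the 1 member without overlap, as in 5.39% of all genes in that direction. Npm1 averaged 3295 ± 241 CPM in inhibited cells, against 2879 ± 239 CPM in deleted cells (SD over 3 plates), and the fitted log2 difference was 0.20 ± 0.05 (SE; edgeR adjusted p = 0.149, between 0.0545 and 0.622 over the alternatives). Nop56 differed by 0.20 ± 0.07 (adjusted p = 0.233), Nolc1 by 0.17 ± 0.06 (0.247), Nop58 by 0.14 ± 0.05 (0.252), Ncl by 0.07 ± 0.04 (0.526), Fbl by 0.15 ± 0.22 (0.832), Myc by 0.46 ± 0.19 (0.323), Mycn by 0.08 ± 0.15 (0.872) and Max by 0.12 ± 0.15 (0.781).

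Of the lists in this comparison, 70 of 95 ribosomal RNA processing genes were above 0 (median 0.08 against 0.00 over all genes), as were 15 of 18 snoRNP genes (0.13), 10 of 17 RNA polymerase I genes (0.09), 29 of 40 growth genes (0.12), 18 of 22 S phase genes (0.10) and 20 of 23 genes of G2 and mitosis (0.11). Among 27 genes of the Myc network 12 were above 0 (median -0.13). The calls were Ldha, which rose by 0.32 ± 0.05 on the log2 scale (edgeR adjusted p = 0.0443), Dctpp1, a nucleotide pyrophosphatase, which rose by 0.35 ± 0.06 (0.0489), and Gins2 of the replicative helicase, which rose by 0.70 ± 0.11 (0.0309). In the lists without a call the smallest p were those of Wdr74 (0.33 ± 0.08) and Nip7 (0.29 ± 0.07) in ribosomal RNA processing, Znhit6 (0.35 ± 0.09) and Snu13 (0.22 ± 0.06) among snoRNP genes, Taf1d (0.23 ± 0.07) and Rrn3 (-0.27 ± 0.12) for RNA polymerase I, Birc5 (0.24 ± 0.06) and Hmmr (0.27 ± 0.08) in G2 and mitosis, and Mxd4 (-0.79 ± 0.25) and Bptf (-0.23 ± 0.08) in the Myc network, with adjusted p of 0.119 to 0.338. Gins2 had 144, 187 and 116 CPM in inhibited cells, against 74.2, 113 and 87.9 CPM in deleted cells, higher on each plate. Trophectoderm markers were lower, at 556.6 to 879 CPM in inhibited cells, against 1020 to 1691 CPM in deleted cells, with Krt18 and Krt8 called (edgeR adjusted p = 0.0185 and 0.0318). Blood and endothelial markers were also lower, at 4.29 to 5.00 CPM in inhibited cells, against 10.0 to 14.0 CPM in deleted cells, with Hbb-bs at 0 in inhibited cells. Pecam1 gave 2.02 to 2.85 CPM of these in inhibited cells, against 7.47 to 8.06 CPM in deleted cells, and the other 7 overlapped (2.15 to 2.51 CPM in inhibited cells, against 2.31 to 6.58 CPM in deleted cells). The median mitochondrial share was 3.24 to 3.48% in inhibited cells, against 3.81 to 4.16% in deleted cells, and with mitochondrial transcripts left out Npm1 stood at 0.19. The part of the markers in the members' values was not tested.

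A test of the plate terms of the same fit was added after the plate 3 levels of Myc had been seen, so it restates those levels and is no independent evidence. Myc had an edgeR adjusted p of 0.0170 in it, and 4.98% of all genes tested passed; no other member did, with the next smallest adjusted p in Nop56 (0.0641).

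At equal depth the members ranged from those found in nearly every well to those found in few, with Nop56 and Nolc1 in between. After thinning to 5869 UMIs, 1147 of 1310 deleted, 1414 of 1590 inhibited and 1410 of 1513 control wells remained, and a single UMI then stood for 170 CPM. Npm1 was detected in 100% of wells in each library and Ncl in 99.7 to 100%. Nop58 was detected in 94.3 ± 2.0% of deleted, 95.6 ± 0.77% of inhibited and 96.2 ± 0.44% of control wells (mean ± SD, n = 3 plates). Nolc1 was detected in 77.7 ± 0.13%, 77.6 ± 0.54% and 79.2 ± 1.5% of deleted, inhibited and control wells. Nop56 was detected in 76.2, 77.1 and 71.7% of deleted wells on plates 1 to 3, 70.2, 78.3 and 72.5% of inhibited wells, and 77.5, 83.6 and 77.9% of control wells. Deleted wells were thus below control wells on each plate, at a difference of -4.70 ± 2.91 percentage points (SD), with an exact two-sided permutation p of 0.25, the smallest that 3 plates allow. At 10000 UMIs they were below on 2 plates, with 88.4% of deleted wells against 87.1% of control wells on plate 1. The share in inhibited wells was below control as well, but the CPM of Nop56 did not follow, and no order is read from it.

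Myc was detected in few wells: 3.74, 4.82 and 7.94% of deleted wells, 6.33, 5.18 and 6.16% of inhibited wells, and 6.39, 6.74 and 12.5% of control wells. The exact (Clopper-Pearson) 95% interval for deleted wells on plate 1 was 2.06 to 6.201%, which covers counting error only. Deleted wells were below control wells on each plate, at a difference of -3.04 ± 1.36 points, as were inhibited wells at -2.66 ± 3.28 points (exact permutation p = 0.25 for each), although the CPM of Myc was no lower in inhibited cells. These differences depended on the thinning depth: deleted against control wells had -0.40 points at 3000 UMIs and -3.30 at 10000 UMIs, and inhibited against control wells 0.21 and 0.02 points. Without plate 3 inhibited against control wells had -0.81 points, so no direction is read from them. Mycn was detected in 16.3 ± 1.6% of deleted, 15.2 ± 0.84% of inhibited and 17.4 ± 2.0% of control wells, Max in 14.1 ± 2.8%, 13.8 ± 1.4% and 14.2 ± 3.0%, and Fbl in 6.42 ± 1.3%, 5.11 ± 2.6% and 5.15 ± 1.7%. Before thinning, Myc was detected in 19.2% of deleted, 21.7% of inhibited and 25.8% of control wells on average, and Mycn in 39.2, 40.1 and 45.7%. In 15 wells without cells, with 2719 UMIs in all, 2 UMIs of Ncl, 5 of Npm1 and 1 of Nop58 were counted and none of the other 6 members, which allows up to 0.110% of UMIs for each.

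Myc and Mycn were rarely seen in the same well at this depth. Both were detected in 14 of 1147 deleted, 12 of 1414 inhibited and 22 of 1410 control wells. Mycn was found in 21.5% of deleted wells with Myc and 15.9% of those without, in 14.5 and 15.3% of inhibited wells, and in 19.8 and 16.9% of control wells. At 10000 UMIs the same shares were 20.8 and 19.0%, 26.0 and 22.1%, and 26.6 and 25.3%. The 5% of wells with the most UMIs of a gene held 51.9 to 78.2% of its UMIs for Myc in the 9 libraries, 48.6 to 72.3% for Mycn, 47.3 to 67.9% for Fbl and 44.0 to 60.8% for Max. For Npm1, found in nearly every well, they held 22.8 to 36.6%. Wells ranked by a gene's own sparse counts give such shares by construction, and nothing is read from them.

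Wells were then ordered by their total UMIs, which mix the RNA content of a cell with the efficiency of its capture. Within each plate and cell type, wells called RNA-rich were the third with the most UMIs, and those called RNA-poor the third with the fewest. The names refer to UMIs counted and not to a measured RNA content. The median was 101654.5 to 228297.5 UMIs in RNA-rich and 5443 to 11995 UMIs in RNA-poor wells over the 9 groups. Fewer cells in a well and less RNA per cell cannot be told apart here, and the part of capture was not tested. Npm1 and Nop58, 2 of the 9 members, rose as a share of all UMIs in the RNA-rich wells, and none fell. In the same test 1021 of 15613 genes were called (6.54%), 690 higher (4.42%) and 331 lower, and with DESeq2's size factors in edgeR 395 higher and 465 lower; Npm1 and Nop58 were called under both.

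Npm1 averaged 3353 ± 360 CPM in RNA-rich and 2723 ± 290 CPM in RNA-poor wells (SD over 9 plate and cell type groups). Its log2 difference was 0.30 ± 0.03 (SE; edgeR adjusted p = 1.34e-06), and in single groups it lay between 0.24 and 0.35, higher in 9 of 9. Its copy Gm14681 rose as well, by 0.26 ± 0.05 (adjusted p = 0.00102). Nop58 averaged 1010 ± 59.5 CPM in RNA-rich and 861.6 ± 91.0 CPM in RNA-poor wells, a log2 difference of 0.23 ± 0.05 (adjusted p = 0.00256). It was higher in 9 of 9 groups, although by only 0.0009 in deleted cells on plate 2, and 3.18% of all genes tested were higher in all 9. Nop58 lost its call when wells were thinned to equal depth (0.14, adjusted p = 0.121) and under the stricter well filter (0.15, adjusted p = 0.0615).

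The other nucleolar genes were not called. Ncl averaged 2399 ± 122 CPM in RNA-rich and 2212 ± 147 CPM in RNA-poor wells, a log2 difference of 0.12 ± 0.04 (edgeR adjusted p = 0.0909), and Nolc1 differed by 0.14 ± 0.06 (0.1995). Both passed when the top and bottom of 5 classes were compared in place of 3 (Ncl 0.17, adjusted p = 0.0305; Nolc1 0.30, adjusted p = 0.00803). Nop56 differed by 0.08 ± 0.06 (0.542) and Fbl by -0.36 ± 0.24 (0.465). In the Myc family the values were 0.31 ± 0.24 for Myc (0.553), -0.20 ± 0.15 for Mycn (0.532) and 0.01 ± 0.15 for Max (0.980). Myc in RNA-poor wells rested on 166 UMIs over all 9 groups and on 3 in deleted cells on plate 1, where its log2 difference was 1.92.

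**Figure D3:**
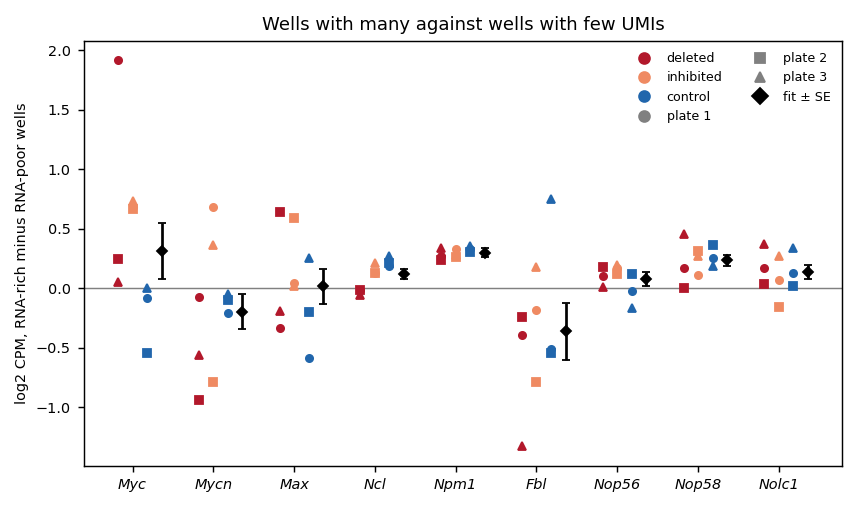
Log2 difference in CPM between RNA-rich and RNA-poor wells (vertical axis) for each gene. Points are the 9 plate and cell type groups (colour gives the cell type, symbol the plate) and black diamonds the edgeR fit ± SE; Npm1 lies between 0.24 and 0.35 in all groups, while Myc, Mycn, Max and Fbl spread to both sides of 0.

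These calls depended on how the wells were ordered. When wells were ordered by the ratio of mouse UMIs to spike-in UMIs, over the 4160 wells with at least 10 spike-in UMIs, 15 genes in all were called, and neither Npm1 (0.10, adjusted p = 0.262) nor Nop58 (0.05, adjusted p = 0.788) was among them. The median share of spike-ins was 0.274 to 0.489% of UMIs in RNA-rich and 0.478 to 0.652% in RNA-poor wells. The median mitochondrial share was 3.24 to 4.21% in RNA-rich and 2.90 to 4.18% in RNA-poor wells, and with mitochondrial transcripts left out Npm1 (0.29) and Nop58 (0.23) were still called.

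Over 5 classes of wells from few to many UMIs, the mean of Npm1 was higher in each class than in the one before. On the scale of total counts, its mean over the 9 groups was 2625, 2946, 3049, 3135 and 3292 CPM, with SDs of 383, 291, 309, 266 and 371. Nop58 followed the same course with 852, 933, 949.6, 971 and 987 CPM. In Ncl the 5 means stayed within 2278 and 2391 CPM and in Nop56 within 329.8 and 367 CPM, highest in the middle class for both. Mycn had 50.03, 50.1, 40.8, 42.5 and 40.3 CPM, with SDs of 9.20 to 16.3. Single steps of Npm1, Nop58 and Mycn were mostly smaller than their SDs.

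**Figure D4:**
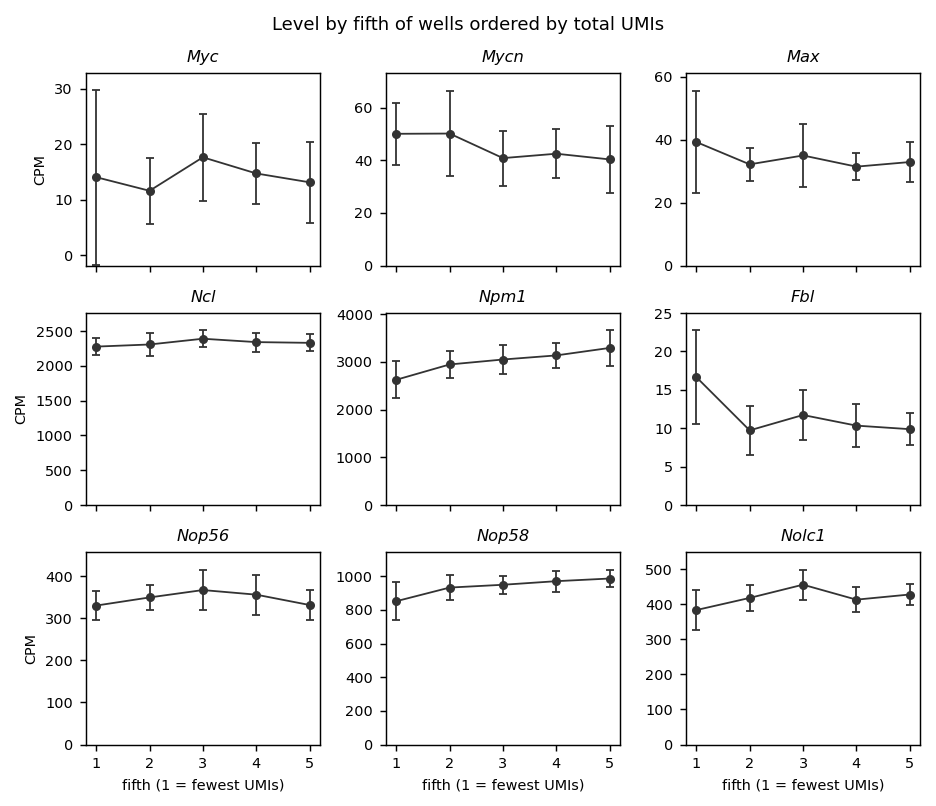
Mean level ± SD over 9 plate and cell type groups (vertical axis, CPM) in 5 equal classes of wells ordered by total UMIs (horizontal axis, class 1 has the fewest). Npm1 goes up through all 5 classes, 2625 to 3292 CPM; for Myc in class 1 the SD exceeds the mean.

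The relation to total UMIs was then compared between cell types, and edgeR called no member in either test of the difference, where Ncl alone had an unadjusted p under 0.05. The smallest p belonged to Ncl. In deleted cells Ncl had 2294 ± 144 CPM in RNA-rich and 2337 ± 112 CPM in RNA-poor wells, in inhibited cells 2448 ± 51.4 and 2195 ± 97.2 CPM, and in control cells 2457 ± 108 and 2105 ± 153 CPM (SD, n = 3). RNA-rich wells were lower on all 3 plates in deleted cells, by small log2 differences of -0.011, -0.015 and -0.056. They were higher on all 3 in both other cell types. The difference between deleted and control cells was -0.25 ± 0.10 on the log2 scale (SE; edgeR adjusted p = 0.994), a negative value in each of the 11 alternatives, with adjusted p from 0.827 to 1.0. In this test 1 gene in all was called (0.0064%), and 766 genes (4.91%) had an unadjusted p under 0.05, against which the 1 member of 9 is read. None was called in the test of inhibited against control cells, where 576 genes had an unadjusted p under 0.05.

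Of the wider lists in RNA-rich against RNA-poor wells, ribosomal RNA processing genes had 19 called higher and 3 called lower of 94 tested, with a median log2 difference of 0.12 against 0.05 over all genes, of which 4.42% were called higher and 6.54% in all. With DESeq2's size factors in edgeR the list had 9 higher and 6 lower. Brix1, a large-subunit assembly factor, rose by 0.42 ± 0.05 (edgeR adjusted p = 3.52e-06), and the small-subunit processome genes Wdr75 (0.48 ± 0.08), Utp11 (0.43 ± 0.07) and Nol11 (0.64 ± 0.12) rose too. Nip7 rose by 0.30 ± 0.06, while Mybbp1a, a nucleolar Myb-binding protein gene, fell by 0.38 on the log2 scale. Among snoRNP genes 2 of 18 rose, Nhp2 of the H/ACA class (0.25 ± 0.04) and the assembly ATPase Ruvbl1 (0.30 ± 0.08), and none fell. Of 17 RNA polymerase I genes 5 were called: Taf1d (0.33 ± 0.06), Top1 (0.29 ± 0.07) and the terminator Ttf1 (0.48 ± 0.15) rose, whereas the initiation factors Rrn3 (-0.34 ± 0.09) and Ubtf (-0.27 ± 0.07) fell. In the Myc network list Ruvbl1, which stands in both lists, was the 1 call of 27. Other growth genes had 3 higher and 1 lower of 39, S phase genes 3 higher of 21, and genes of G2 and mitosis 5 higher of 23. Of the growth genes, the mitochondrial chaperone Hspd1 (0.25 ± 0.05), the cyclin Ccnd2 (0.44 ± 0.13) and C1qbp (0.19 ± 0.06) rose, and the mitochondrial ribosomal gene Mrpl12 fell by 0.46 on the log2 scale. The S phase genes that rose were Rrm1 (0.39 ± 0.08), Pcna, the DNA clamp (0.29 ± 0.06), and Tyms (0.23 ± 0.07). Those of G2 and mitosis were Hmmr (0.38 ± 0.06), Tpx2 (0.41 ± 0.07), the mitotic kinase Cdk1 (0.33 ± 0.07), Ccnb2 (0.33 ± 0.07) and Top2a (0.22 ± 0.06). With DESeq2's size factors in edgeR the calls were 1 higher and 1 lower of snoRNP genes, 2 and 2 of RNA polymerase I, 0 and 0 of the Myc network, 1 and 3 of growth genes, 2 and 2 of S phase, and 4 and 0 of G2 and mitosis, and Ruvbl1, Ttf1, Ccnd2, C1qbp, Tyms and Top2a lost their call.

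From well to well within a library, correlations were computed after thinning, as Pearson's r of log2(count + 1), and are a description over the 9 groups, whose wells share a library. Ncl and Npm1 correlated most, with a median r of 0.25 (0.15 to 0.33 over the groups). Npm1 and Nop58 had 0.14, Ncl and Nolc1 0.13, Ncl and Nop58 0.12, and Npm1 and Nolc1 0.11. These 5 pairs, and 1 more, were positive in all 9 groups of the 36 pairs; the other was Ncl with Nop56, at 0.04. Pairs with Myc, Mycn, Max or Fbl had a median r between -0.04 and 0.05 at this depth, which in such sparse counts is no finding. At 10000 UMIs Mycn with Nop56 reached 0.11 (0.03 to 0.18 over the 9 groups). This pair stands out among many, and its relation was not tested.

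**Figure D5:**
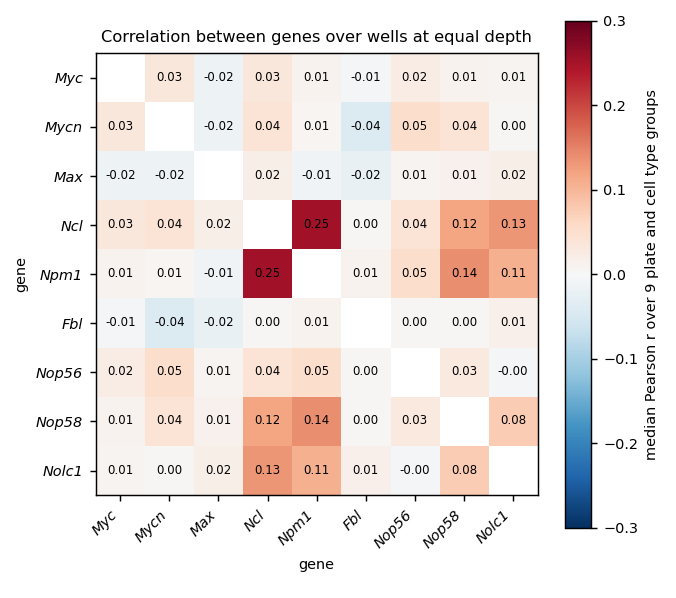
Median Pearson r over the 9 plate and cell type groups for each pair of genes (both axes), over wells thinned to 5869 UMIs; the colour scale runs from -0.3 to 0.3. The strongest square is Ncl with Npm1 at 0.25, and squares of Myc, Mycn, Max and Fbl stay near 0.

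Against summed lists, Npm1 had a median r of 0.32 with ribosomal protein genes, 0.31 with other snoRNP genes, 0.24 with ribosomal RNA processing genes and -0.19 with mitochondrial transcripts. Ncl had 0.18, 0.21, 0.26 and -0.05 with the same 4 sums. Nop58 reached 0.13 with ribosomal RNA processing genes, Nop56 0.14 and Nolc1 0.17. With S phase genes the median r of all 9 members was 0.10 or less and with genes of G2 and mitosis also 0.10 or less. At 10000 UMIs Npm1 had 0.17 and 0.11 with these sums, Ncl 0.14 with both and Nolc1 0.10 and -0.02. With the total UMIs of the well before thinning, Npm1 had 0.14 and Nop58 0.11, positive in 9 of 9 groups, and Ncl 0.04.

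Among 4101 genes with at least 0.2 UMIs per thinned well, those most like Npm1 were its pseudogene copy Gm14681 (median r 0.41, 0.39 to 0.55 over the 9 groups), Gm9800 (0.30) and Mkrn1 (0.28). For Ncl they were Gm9800 (0.24), Mkrn1 (0.22) and Ptma (0.18), and for Nop58 Ptma (0.16), 1810037I17Rik (0.16) and Eif2s2 (0.15). Nop56 was most like its copy Gm27219 (0.22), then Phc1 (0.11) and Mtf2 (0.10). Nolc1 was most like Slc25a5 (0.11), Rif1 (0.10) and Hspd1 (0.10). For Npm1 and Nop56 the closest gene was thus 1 that shares sequence with them, and the part of shared reads in these values was not tested. For the sparse members the values were lower: Myc had Gsta4, Fbxo5 and Hmces (0.07 each), Mycn had Rif1 (0.08), Tdgf1 (0.08) and Cdc20 (0.07), Max had Rabgap1 (0.07), Commd2 (0.07) and Ewsr1 (0.06), and Fbl had Map4k1 (0.08), Kpnb1 (0.07) and G3bp2 (0.07). In such sparse counts these are no finding.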

How the data were processed

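Single wells of 3 chips were profiled by UMI sequencing. The authors deposited whole-number UMI counts per gene and well for each chip, and a deposited report table gives each well's cell type, a text label used here as unit "other". STAR 2.5.2b, featureCounts of Subread 1.4.6-p1 and the mm10 build are named per the submitters' processing notes; strand, the handling of reads that fit several places and the transcript end counted are not given in the sources used here. Of 29267 mouse gene identifiers 28641 were named by GENCODE M21 (GRCm38). No column of another sample was used (0 such columns).

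Of 4610 wells of the 3 cell types, 4413 with at least 1000 genes and under 20% mitochondrial UMIs were kept (197 left out), with a median of 36355 UMIs (1611 to 1108770). No doublet caller was run; leaving out the deepest 5% of wells stands in as an alternative. Spike-in and reporter counts (0.67% of UMIs) stayed out of library sizes. Counts were summed per plate and cell type (9 libraries), filtered with filterByExpr, scaled by TMM and tested with edgeR 4.0.16 (R 4.3.3) by the quasi-likelihood test with plate as a block and Benjamini-Hochberg adjustment over all genes (threshold 0.05); DESeq2 1.42.0 was an alternative. Libraries of 1 plate deviated together (r 0.293 to 0.471 for same-plate pairs), so the plate pairs them. Pairs on different plates had r of -0.299 to -0.0377. Each cell type was first centred over its plates, which pushes these below 0, so they add no evidence. The RNA-rich and RNA-poor wells were summed likewise (18 libraries, 15613 genes tested), but with each plate and cell type group as a block (9 blocks) in place of the plate. For shares of wells and relations between wells, 3971 wells were thinned to 5869 UMIs, the 10th percentile over all kept wells, and 442 shallower ones left out. Log2 values of thinned counts have a pseudocount of 1. Floors are 3 counts of a total; intervals (95%, exact) and floors cover counting error only. Copies were found with blastn 2.17.0. The code was tested on simulated counts.

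The members and lists were chosen with earlier results of these data known. Text names the 9 members in each comparison, of each list up to 6 called genes or otherwise the 2 with the smallest p, and the 3 genes most like each member. Alternatives were RLE size factors, no filter on low counts, a stricter well filter, wells thinned to equal depth, no block, DESeq2, each plate left out, other depth classes, spike-in ordering and other thinning depths. Total-count scaling, leaving out mitochondrial transcripts and the test between plates were added after the data had been seen.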

Additional observations from a re-analysis of the deposited data

Results flagged for a closer look

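The relation of Ncl to total UMIs had opposite signs in the cell types, with small values in deleted cells (-0.011, -0.015 and -0.056 on plates 1, 2 and 3). In deleted cells RNA-rich wells were below RNA-poor wells on all 3 plates, with a mean log2 difference of -0.03, while in control cells they were above on all 3, with a mean of 0.22. The means differed by -0.25, and the interaction in edgeR's quasi-likelihood fit had an unadjusted p of 0.0132 and an adjusted p of 0.994. In inhibited cells RNA-rich wells were also above RNA-poor wells on all 3 plates (mean 0.16), so that inhibited minus deleted cells came to 0.19, a difference that was not tested. The lowest and highest of 5 classes were also set side by side on the scale of total counts. Ncl went from 2337 to 2390, 2302 to 2276 and 2273 to 2307 CPM in inhibited cells on plates 1 to 3. It went from 2534 to 2431, 2340 to 2255 and 2268 to 2073 CPM in deleted cells. Control cells had 2139 to 2503, 2208 to 2381 and 2101 to 2371 CPM. Ncl in RNA-poor wells rested on 2512 to 5593 UMIs per group.

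UMIs of some members were counted in wells that held no kept cell. In the 15 control RNA wells, with 20306 UMIs in all, 36 UMIs of Ncl, 4 of Nop56, 6 of Nolc1 and 5 of Nop58 were counted. Wells without cells held 2, 0, 0 and 1 UMIs of the same genes among 2719 UMIs. Npm1 had 5 UMIs in 4 of the 15 wells without cells, above the limit of 3 counts, and 16 UMIs in the control RNA wells. A well without cells had a median of 165 UMIs, against 36355 UMIs in kept wells.

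In no member did a single plate and cell type group stand apart from the other 8 in its difference between RNA-rich and RNA-poor wells past Dixon's critical value of 0.493. The nearest was Myc (0.482), with deleted cells on plate 1 highest. Chance passes about 1 in 20 such groups.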

How the results depend on the processing

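The number of members called in deleted against control cells was 0, and 1 with no filter on low counts and with DESeq2 (Npm1 in both). In RNA-rich against RNA-poor wells it was 2, and 4 with no filter and with the top and bottom of 5 classes, 1 with no replicate block, with thinned wells and with the stricter well filter, and 0 with wells ordered by spike-in ratio. Over all genes, deleted against control cells gave 6 calls, and 11 by total counts, 179 with no filter, 0 with no replicate block, 325 with DESeq2, 69 thinned, 3 without mitochondrial transcripts and 1 to 5 without 1 plate. Inhibited against control cells gave 1 call, and 0 by total counts, with no block, without mitochondrial transcripts and without any 1 plate, 108 with no filter, 277 with DESeq2 and 75 thinned. Inhibited against deleted cells gave 53, and 383 with no filter, 3 with no block, 723 with DESeq2, 170 thinned, 31 without the deepest 5% of wells and 0 to 73 without 1 plate. RNA-rich against RNA-poor wells gave 1021, and 410 with no block, 481 thinned, 382 with the stricter filter, 15 by spike-in ratio and 484 to 661 without 1 plate. The test of the difference between cell types gave 1, and 12 with no filter, 0 thinned, with the stricter filter and by spike-in ratio, 9 with 5 classes and 4 to 10 without 1 plate. Of the members, 3 had a lower detection share in deleted than in control cells on every plate (Myc, Nop56 and Nolc1), 3 to 5 without 1 plate, 2 at 3000 UMIs (Mycn and Nop56) and 2 at 10000 UMIs (Myc and Mycn). The same 3 members were lower in inhibited than in control cells on every plate. That number was 4 to 5 without 1 plate, 3 at 3000 UMIs (Ncl, Fbl and Nop56) and 2 at 10000 UMIs (Nop56 and Nop58). The share of all genes with a lower detection share on every plate was not computed.

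The plate block changed no call of a member other than that of Nop58 (adjusted p = 0.0756 without it, edgeR). In inhibited against control cells the log2 differences turned sign as follows. Myc had -0.32 thinned, Max -0.038 by total counts, -0.17 thinned and -0.18 to 0.14 without 1 plate, and Ncl -0.028 by total counts and -0.0020 to 0.038 without 1 plate. Npm1 had -0.098 to 0.0058 without 1 plate. Fbl had 0.0022 with no block, 0.0055 with the stricter filter and -0.19 to 0.080 without 1 plate. Nop56 had -0.018 by total counts, -0.037 thinned, -0.033 without the deepest 5% of wells and -0.030 to 0.095 without 1 plate. Nop58 had -0.017 by total counts and -0.0035 thinned, and Nolc1 -0.015 by total counts and -0.0099 without the deepest 5%. In deleted against control cells thinning turned Mycn (0.018), Ncl (0.012) and Fbl (0.37). In inhibited against deleted cells thinning turned Mycn (-0.13), Max (-0.050) and Fbl (-0.43), and without 1 plate they lay at -0.13 to 0.18, -0.040 to 0.24 and -0.061 to 0.25. In RNA-rich against RNA-poor wells Mycn had -0.36 to 0.018 without 1 plate. Max had -0.043 with RLE factors, -0.065 by total counts, -0.046 with DESeq2, -0.17 thinned, -0.074 with 5 classes and -0.13 to 0.17 without 1 plate. Nop56 had -0.0023 by total counts, -0.053 thinned and -0.0072 with the stricter filter. With no filter the median over all genes there was 0.24, against 0.05. The cause was not tested in any of these. Over the members and alternatives, 103 of 108 values kept direction and side of the threshold in deleted against control cells, 89 of 108 in inhibited against control, 102 of 108 in inhibited against deleted and 97 of 117 in RNA-rich against RNA-poor wells. Of 135 differences in detection share, 122 moved by no more than the spread (SD) between plates and 13 by more. Leaving 1 plate out cannot move such a mean by that much, so those values were bound to stay. All 13 came from the other thinning depths. Sparse counts of Myc and Fbl in RNA-poor wells limit what can be seen of both.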
